A study of Mus musculus with 9 samples.

Results

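The desmosomal cadherins are 8 genes of the mouse, the desmogleins Dsg1a, Dsg1b, Dsg2, Dsg3 and Dsg4 and the desmocollins Dsc1, Dsc2 and Dsc3. They were chosen by symbol and not by a measured value, though with earlier results of these data known. They are 8 of the 46517 gene rows in each table. All 8 passed the filter on low counts. Transcripts were measured by bulk RNA sequencing of 4 cell populations sorted from the back skin of mice at postnatal day 30, during the last stage of hair growth (anagen VI). Hair follicle stem cells (HFSC) gave 3 libraries, and 2 each came from the outer root sheath (ORS) and from the basal and the suprabasal layer of the hair bulb (HB). Every library carries the strain label Lhx2-GFP (CD1) and the sex label "Mixed", whereas K14-H2BGFP mice are named in the text on extraction, and which line drove GFP in the sort is not settled. CD34, Sca-1, Pcadherin, GFP and the integrins α6 and b1 are the sort markers of all 4 populations, with no gate given for any one of them. No treatment or mutation separates the groups. The labels do not say how many mice went into a library or whether replicates came from separate mice, so a p-value here measures only the spread between these libraries, which may be technical.

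Desmosomes are junctions that fasten neighbouring epithelial cells to each other and, inside each cell, anchor the keratin filaments. Desmogleins and desmocollins span the membrane and bind their counterparts on the next cell, while plakoglobin (Jup), plakophilins (Pkp) and desmoplakin (Dsp) link their tails to keratin. In stratified skin the members are expressed in layers, with Dsg2, Dsg3, Dsc2 and Dsc3 known mostly from deeper layers and Dsg1 and Dsc1 from upper layers, and Dsg4 is best known from the hair shaft cortex. Dsg3 is the autoantigen of pemphigus vulgaris and Dsg1 that of pemphigus foliaceus, and loss of Dsg4 gives the fragile hair of lanceolate mice. The mouse holds 3 Dsg1 genes, of which Dsg1c was kept apart from the 8 and is described with the partner genes.

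Total expected counts ranged from 25098237 to 88596741 per library, and the 3 HFSC libraries were the shallowest. The mitochondrial share of counts was 4.36% in suprabasal HB (both libraries) and between 2.28% and 2.89% elsewhere. The labels were checked against marker sums in normalised CPM (counts scaled by library depth). Bulge stem cell markers summed to 4691 to 5797 CPM in HFSC and ORS, 760.2 to 1078 in basal HB and 329 to 572 in suprabasal HB. The sums of HFSC and ORS overlap because Lhx2 was 2.35-fold higher in ORS. There, 4 of the other 5 markers, among them Sox9 (8.24-fold) and Cd34 (5.17-fold), were lower, beside 23.8% of all genes. CD34 and GFP were sort markers, so Cd34, and Lhx2 if Lhx2-GFP drove the GFP, may differ through the gates. For these genes the labels are not checked independently. Hair shaft markers summed to 2161 to 2548 CPM in suprabasal HB, 1253 to 1365 in basal HB and 297 to 322 in HFSC and ORS. Padi3 alone gave 1046 and 1190.3 CPM of this in basal HB, and the other 8 entries, hair keratins among them, summed to 1945 and 2194 CPM in suprabasal HB, 175 and 207 in basal HB and 30.3 to 81.8 in HFSC and ORS. Marker genes named singly, here and below, were picked out after their values were seen. Basal keratinocyte and outer root sheath markers (Krt5, Krt14, Krt16, Krt17) summed to 8973 to 11184 CPM in HFSC and 3248 to 3875 in ORS. They summed to 2257 to 2503 CPM in basal HB and 1169 to 1228 in suprabasal HB. All 4 were lower in ORS than in HFSC, beside 23.8% of all genes, so ORS was not highest for this list. Dermal fibroblast markers summed to 2705 and 1119 CPM in suprabasal HB and 626 to 1536 elsewhere. Melanocyte markers, of which none was at 0 in any library, summed to 14287 and 14760 CPM in suprabasal HB, 799 to 1213 in basal HB, and 40.5 to 268 in HFSC and ORS. In bulk RNA, fewer cells of a type and less RNA per cell cannot be told apart, and this holds for every difference below.

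The members lie together on chromosome 18 (build mm10, gene models of GENCODE M21), in a cluster from 19960930 to 20604521 that spans 643.6 kb. The 9 protein-coding genes of that span are the 8 members and Dsg1c. Dsc3 (ENSMUSG00000059898, chr18:19960930-20002351), Dsc2 (ENSMUSG00000024331, chr18:20030633-20059554) and Dsc1 (ENSMUSG00000044322, chr18:20084184-20114871) lie on the minus strand. After a gap of 132468 bases come, on the plus strand, Dsg1c, Dsg1a (ENSMUSG00000069441, chr18:20310811-20343350), Dsg1b (ENSMUSG00000061928, chr18:20376729-20410196), Dsg4 (ENSMUSG00000001804, chr18:20436175-20471821), Dsg3 (ENSMUSG00000056632, chr18:20510274-20547459) and Dsg2 (ENSMUSG00000044393, chr18:20558074-20604521). Gaps between the other neighbours are 10614 to 38452 bases. The tables count whole genes, so exons and untranslated regions were not measured apart.

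Sequence similarity bears on 2 of the genes in particular. Of all 50-base words in the Dsg1a transcript, 35.02% occur in transcripts of other genes, nearly all of them in Dsg1b (31.58%), and for Dsg1b the share is 48.94%. How the counting split reads between Dsg1a and Dsg1b is therefore uncertain, and the pair is best read as one signal. Words of Dsg4, Dsc1, Dsc2 and Dsc3 occur in no other gene's transcripts, and 0.12% of the Dsg3 words do. Dsg2 shares 3.44% of its words with Gm16090, an antisense transcript that overlaps it. Gm16090 had 15 to 76 counts per library, and since the strand used for counting is not given, its reads and those of Dsg2 cannot be told apart there.

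The members did not move as one group across the follicle, and their patterns fell along the hair bulb. Between the basal and suprabasal layers of the bulb, Dsg2, Dsg3 and Dsc2 were lower in the suprabasal cells while Dsg1a, Dsg1b, Dsg4 and Dsc1 were higher, so 7 of 8 members passed the test (edgeR, adjusted p under 0.05), 4 higher and 3 lower. Among all 20491 genes tested in that comparison 27.9% passed, 13.1% higher and 14.8% lower. Basal HB against ORS also gave 7 of 8, with Dsg2, Dsg3, Dsg4 and Dsc2 higher and Dsg1a, Dsg1b and Dsc3 lower, beside 30.5% of all genes. Without basal HB replicate 2 the count for suprabasal against basal HB was 4 of 8, as 3 members missed the threshold.

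**Figure D1:**
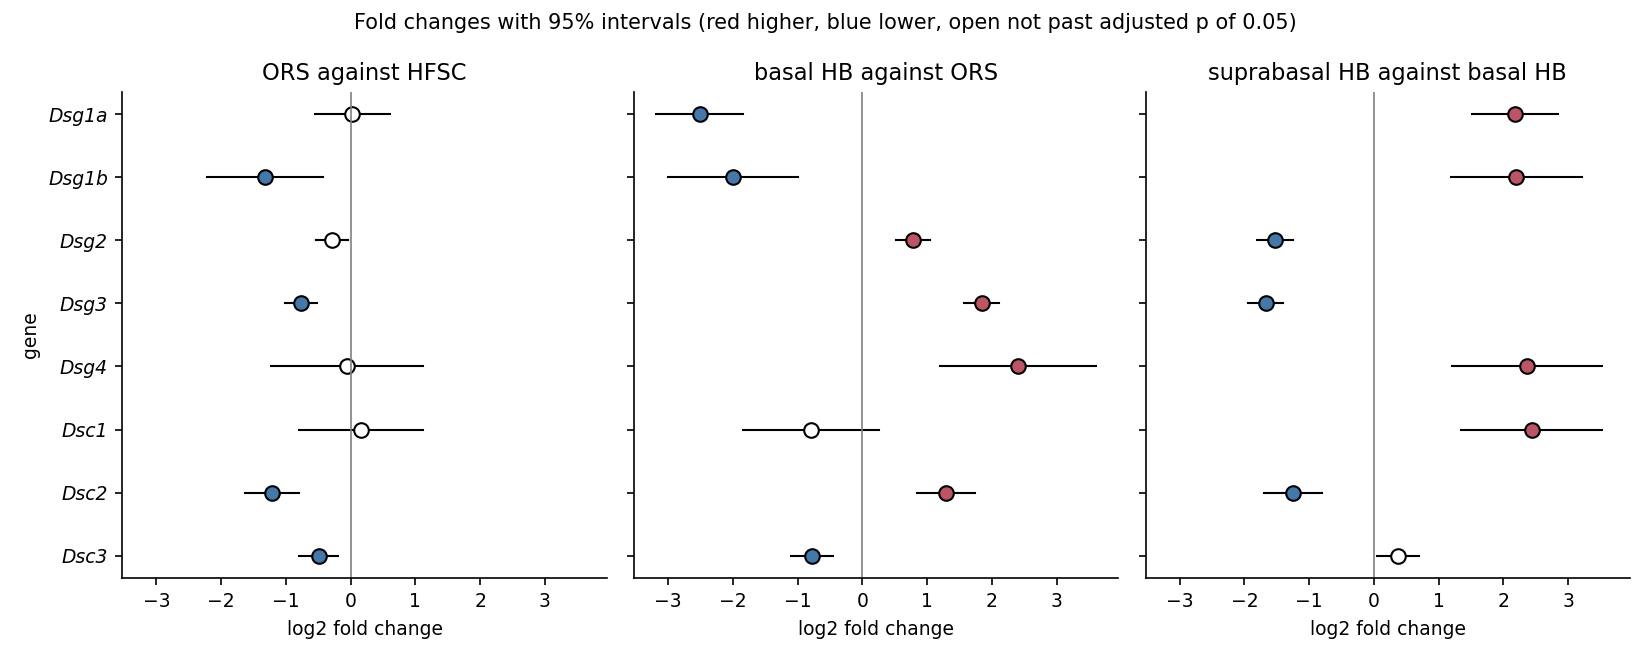
Log2 fold change of each member with its 95% interval in 3 of the 6 comparisons (x axis, log2 scale; y axis, gene). Filled points passed an adjusted p of 0.05, red for higher and blue for lower: none was higher in ORS than in HFSC, whereas the other 2 panels each show 4 higher and 3 lower.

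Against the stem cells the picture differed by population. In ORS 0 members were higher than in HFSC by edgeR, as also at an unadjusted p under 0.05 and with DESeq2, and Dsg1b, Dsg3, Dsc2 and Dsc3 were lower, which is 4 of 8 beside 41.9% of all genes, or 23.8% in the lower direction. That count was 2 of 8 without HFSC replicate 2 and also 2 of 8 without HFSC replicate 3. Basal HB had 3 members higher than HFSC (Dsg2, Dsg3, Dsg4) and 3 lower (Dsg1a, Dsg1b, Dsc3), beside 48.9% of all genes (22.8% higher). Suprabasal HB had 2 higher (Dsg4, Dsc1) and 5 lower (Dsg1b, Dsg2, Dsg3, Dsc2, Dsc3), beside 51.5% of all genes (25.2% higher). Suprabasal HB against ORS gave 3 of 8, Dsg4 and Dsc1 higher and Dsg2 lower, close to the 29.4% of all genes (14.3% higher). The median log2 fold change of the 8 was 1.28 for suprabasal against basal HB, where the median over all genes was 0. No member lay near this median, which falls between Dsc3 (0.37) and Dsg1a (2.19), with Dsg2, Dsg3 and Dsc2 below 0. It therefore does not stand for a rise of the family. Dsg1a and Dsg1b also count in it as 2 members, although the pair is best read as a single signal. In the other comparisons the median of the 8 was 0.00 for basal HB against ORS, 0.11 for suprabasal HB against ORS, and -0.39, -0.28 and -0.74 for ORS, basal HB and suprabasal HB against HFSC, with all-gene medians between -0.05 and 0.02. Comparisons that share a population share its libraries, so these counts are not independent of each other. The HFSC libraries are also the shallowest, and depth and population cannot be told apart in comparisons with HFSC.

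**Figure D2:**
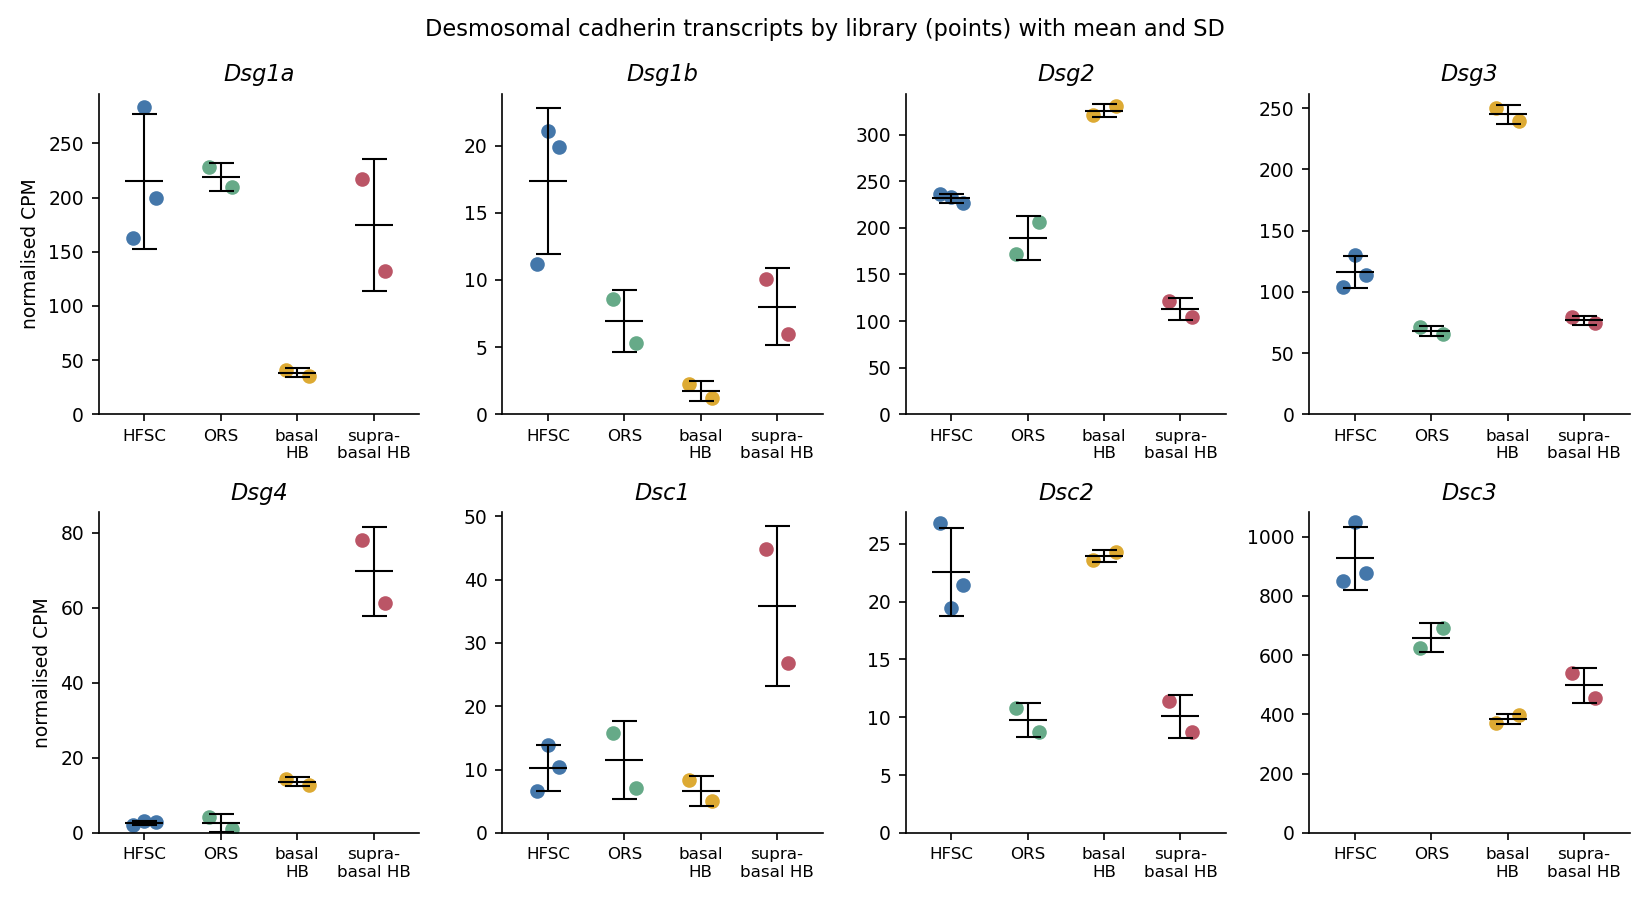
Normalised CPM (y axis, linear from 0, a scale of its own for each gene) of the 8 members by population (x axis), with a point for each library and bars for the mean and SD. Dsg3 has its 2 basal HB libraries at 239 and 250.3 CPM, above all others, and Dsg4 its 2 suprabasal HB libraries at 61.3 and 78.0.

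Dsg3, which carries adhesion in the basal layer of skin and mucosa, peaked in the basal cells of the bulb. Its level was 104, 129.9 and 114 CPM in HFSC, 71.0 and 65.2 in ORS, 250.3 and 239 for basal HB and, for suprabasal HB, 79.4 and 74.3. The 4 populations do not overlap, and the order from high to low is basal HB, HFSC, suprabasal HB, ORS. Basal HB was 3.59-fold above ORS (log2 1.85, SE 0.12, edgeR adjusted p = 6.72e-05) and 2.11-fold above HFSC (adjusted p = 6.29e-05 by edgeR). The suprabasal cells were 3.19-fold below the basal ones (log2 -1.67, SE 0.12, edgeR adjusted p = 5.14e-05). ORS was 1.70-fold below HFSC (edgeR adjusted p = 0.00073), and suprabasal HB 1.51-fold below HFSC (edgeR adjusted p = 0.00171). The 2 lowest neighbours, suprabasal HB and ORS, differed by a log2 of 0.17 with a 95% interval from -0.09 to 0.44 that did not pass (edgeR adjusted p = 0.301).

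Dsg2, the most widely expressed desmoglein, found in simple epithelia and heart as well as skin, followed a similar but shallower course. HFSC had 236, 233 and 227 CPM, ORS 172 and 206, basal HB 321 and 331, and suprabasal HB 122 and 105. Again the populations do not overlap, with basal HB highest and suprabasal HB lowest. Basal HB exceeded ORS 1.72-fold (log2 0.78, SE 0.12, edgeR adjusted p = 0.00135) and HFSC 1.41-fold (edgeR adjusted p = 0.00475). Suprabasal HB was 2.88-fold below basal HB (log2 -1.53, SE 0.12, edgeR adjusted p = 7.88e-05), 2.05-fold below HFSC (edgeR adjusted p = 7.59e-05) and 1.67-fold below ORS (edgeR adjusted p = 0.0016). The difference between ORS and HFSC was -0.29 on the log2 scale (95% interval -0.54 to -0.05) and missed the threshold (edgeR adjusted p = 0.0559). With DESeq2 this difference passed (log2 -0.27, DESeq2 adjusted p = 0.0312). It passed without ORS replicate 2 (-0.43, edgeR adjusted p = 0.0319) and without suprabasal HB replicate 1 (edgeR adjusted p = 0.0492), and its sign turned on the TPM scale.

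Among the 3 companion layer markers, keratins of the layer between ORS and inner root sheath, Krt75 was highest in the same population as both genes, at 1060.3 and 1129.4 CPM in basal HB against 95.01 to 249.9 elsewhere. The list did not move as one, since Krt6a was 54.4-fold lower in basal HB than in HFSC (edgeR adjusted p = 3.61e-05). Krt6b was at 0 in both suprabasal HB libraries and did not pass the filter on low counts. The sum of the 3 was 1063 and 1132 CPM in basal HB and 115 to 334 elsewhere. The part of these markers in the results for Dsg2 and Dsg3 was not tested.

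Dsg1a, the main Dsg1 gene in these libraries, showed the reverse pattern, with a trough in the basal bulb. Its levels were 162, 284 and 199 CPM in HFSC, 228 and 209.8 in ORS, 41.2 and 35.6 for basal HB and, for suprabasal HB, 217 and 132. The basal HB libraries are below all 7 others, which overlap one another. Basal HB was 5.70-fold below ORS (log2 -2.51, SE 0.30, edgeR adjusted p = 0.000457) and 5.60-fold below HFSC (edgeR adjusted p = 0.000152), and suprabasal HB was 4.55-fold above basal HB (log2 2.19, SE 0.29, edgeR adjusted p = 0.00097). HFSC, ORS and suprabasal HB did not differ beyond their spread: ORS against HFSC gave a log2 of 0.03 (95% interval -0.55 to 0.61), suprabasal HB against HFSC -0.30 (-0.88 to 0.28) and suprabasal HB against ORS -0.33 (-0.96 to 0.31).

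Dsg1b, which shares 45.47% of its 50-base words with Dsg1a, was lowest in basal HB as well but highest in the stem cells, with the split of reads between them uncertain. HFSC had 11.2, 21.1 and 19.9 CPM, ORS 8.61 and 5.33, basal HB 2.28 and 1.2, and suprabasal HB 10.05 and 5.98. All HFSC libraries exceed all others, all basal HB libraries are below all others, and ORS and suprabasal HB overlap. Basal HB was 9.94-fold below HFSC (log2 -3.31, SE 0.44, edgeR adjusted p = 0.000366) and 3.98-fold below ORS (edgeR adjusted p = 0.00871), and suprabasal HB was 4.59-fold above basal HB (log2 2.2, SE 0.44, edgeR adjusted p = 0.00704). Without basal HB replicate 2 the last pair of calls was lost, at edgeR adjusted p = 0.0678 against ORS and 0.0562 for suprabasal against basal HB. ORS and suprabasal HB were 2.50-fold and 2.16-fold below HFSC (edgeR adjusted p = 0.0261 and 0.0408). Both calls were lost without HFSC replicate 2 (edgeR adjusted p = 0.094 and 0.144) or HFSC replicate 3 (edgeR adjusted p = 0.0923 and 0.137), the first also without ORS replicate 2 (edgeR adjusted p = 0.137) and the second without suprabasal HB replicate 2 (edgeR adjusted p = 0.287). With the counts of Dsg1a, Dsg1b and Dsg1c summed to a single entry, the calls made for Dsg1a were unchanged in all 6 comparisons.

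Krt1, Krt10, Krt77, Lor, Ivl and Flg mark the suprabasal epidermis, where Dsg1 is typically found. Their 13 entries in the tables, 8 of them for Flg, summed to 165 and 173 CPM in basal HB, 59.5 to 112 in HFSC, 30.5 and 40.1 in ORS and 45.5 and 58.0 in suprabasal HB. Most of the basal HB sum was Ivl, at 141 and 153 CPM. Without Ivl the sums were 20.6 and 23.9 CPM in basal HB, 41.6 to 95.8 in HFSC, 20.6 and 25.6 in ORS and 26.2 and 44.0 in suprabasal HB. Krt1, Krt10 and Krt77 were lower in basal HB than in HFSC, by 8.25-fold, 4.49-fold and 10.3-fold (edgeR adjusted p = 0.0404, 0.000599 and 0.0269), beside 26.1% of all genes. Dsg1a and Dsg1b had the same direction. Ivl was higher there, and Lor, with means of 10.1 CPM in basal HB and 6.28 in HFSC, did not pass. The 3 keratins were also lower in ORS than in HFSC, beside 23.8% of all genes, as was Dsg1b but not Dsg1a (log2 0.03). Between the bulb layers none of these 3 keratins passed (edgeR adjusted p = 0.446, 0.141 and 0.707). Between 3 and 8 of the 13 entries were at 0 in each library, all of them Flg entries. The part of these markers in the Dsg1 results was not tested.

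Dsg4, the desmoglein of the hair shaft, had the widest range of the 8 and rose in steps into the bulb. It had 2.03, 3.06 and 2.94 CPM in HFSC, 4.25 and 0.950 in ORS, 14.5 and 12.7 for basal HB and, for suprabasal HB, 78.0 and 61.3. The counts behind these were 56 to 81 in HFSC, 85 and 288 in ORS, 854 and 994 for basal HB and, for suprabasal HB, 2739 and 4137. Basal HB libraries exceed all HFSC and ORS libraries, and suprabasal HB libraries exceed all others, while ORS and HFSC overlap. Suprabasal HB was 26.1-fold above HFSC (log2 4.71, SE 0.50, edgeR adjusted p = 7.78e-05), 27.2-fold above ORS (log2 4.76, SE 0.58, edgeR adjusted p = 0.000361) and 5.13-fold above basal HB (log2 2.36, SE 0.51, edgeR adjusted p = 0.00958). Basal HB was 5.09-fold above HFSC (edgeR adjusted p = 0.00396) and 5.30-fold above ORS (log2 2.41, edgeR adjusted p = 0.00864).

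The 2 ORS libraries differ more than 4-fold in Dsg4, and this sets the values that rest on ORS. Basal HB against ORS was 3.83 on the log2 scale without ORS replicate 1 and 1.68 without ORS replicate 2, and suprabasal HB against ORS was 6.19 and 4.03, each still past the threshold. ORS against HFSC, at -0.06 (95% interval -1.23 to 1.11), passed as lower without ORS replicate 1 (-1.49, edgeR adjusted p = 0.00492) and turned to 0.67 without ORS replicate 2, which did not pass (edgeR adjusted p = 0.0578). ORS replicate 1 also had more of the inner root sheath markers (1417 against 834 CPM) and melanocyte markers (268 against 40.5 CPM). The hair shaft markers other than Padi3 summed to 81.8 CPM in it and 30.3 in ORS replicate 2, the same order as Dsg4. Padi3 had 215 and 289 CPM and the full list 297 and 319, the reverse order. In HFSC and basal HB the sum without Padi3 also followed the order of Dsg4. In suprabasal HB replicates 1 and 2 it did not, at 1945 and 2194 CPM with Dsg4 at 78.0 and 61.3. The call for suprabasal against basal HB was lost without basal HB replicate 1 (log2 2.46, edgeR adjusted p = 0.0651) or basal HB replicate 2 (log2 2.27, edgeR adjusted p = 0.0721), although the fold hardly moved.

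Hair shaft markers rose together with Dsg4. Of their 9 entries measured, 8 passed as higher in suprabasal HB against HFSC, 7 against ORS and 7 against basal HB, where 1, Padi3, was lower. Among all genes 25.2%, 14.3% and 13.1% were higher in these comparisons. Basal HB against HFSC had 7 higher and basal HB against ORS 6, beside 22.8% and 15.8% of all genes. All 6 melanocyte markers were higher in basal HB and in suprabasal HB than in either HFSC or ORS, and higher in suprabasal than in basal HB. The shares of all genes are the same there. The part of cells of these types in the Dsg4 result was not tested.

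Dsc1, the desmocollin of upper epidermal layers, was the only other member that peaked in the suprabasal bulb. HFSC had 6.60, 13.9 and 10.4 CPM, ORS 15.8 and 7.14, basal HB 8.26 and 4.95, and suprabasal HB 44.8 and 26.9. Both suprabasal HB libraries exceed all others, and the other 3 populations overlap. Suprabasal HB was 5.42-fold above basal HB (log2 2.44, SE 0.48, edgeR adjusted p = 0.00614), 3.49-fold above HFSC (log2 1.80, SE 0.41, edgeR adjusted p = 0.00607) and 3.13-fold above ORS (log2 1.65, SE 0.46, edgeR adjusted p = 0.0269). The call against basal HB was lost without basal HB replicate 2 (edgeR adjusted p = 0.0551). That against ORS was lost without ORS replicate 2 (log2 1.18, edgeR adjusted p = 0.131) or suprabasal HB replicate 1 (log2 1.23, edgeR adjusted p = 0.133), and it was 2.33 without ORS replicate 1. None of the differences between HFSC, ORS and basal HB passed, with 95% intervals on the log2 scale of -0.80 to 1.11 for ORS against HFSC, -1.62 to 0.35 for basal HB against HFSC and -1.84 to 0.25 for basal HB against ORS.

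In suprabasal HB replicates 1 and 2, inner root sheath markers summed to 3413 and 2314 CPM. In ORS replicates 1 and 2 they summed to 1417 and 834 CPM. Within these populations the library with more Dsc1 also had the larger sum. This did not hold in HFSC, where replicates 1, 2 and 3 had 642, 992 and 1012 CPM while Dsc1 was highest in replicate 2. Basal HB replicates 1 and 2 had sums of 4399 and 4713 CPM, the reverse of the order of Dsc1. Tchh gave 3818 and 4193 CPM of these. The other 7 markers summed to 581 and 520.4 CPM in basal HB, 520.4 to 841 in HFSC, 1261 and 749 in ORS and 2785 and 1692 in suprabasal HB, so without Tchh both suprabasal HB libraries were highest, as they were for Dsc1. Of the 8 inner root sheath markers, 7 were higher and 1, Tchh, was lower in suprabasal than in basal HB, beside 27.9% of all genes in either direction. Their part in the Dsc1 result was not tested.

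Dsc2, the desmocollin found in most desmosome-bearing tissues, was low throughout and split the populations into a higher and a lower pair. HFSC had 26.8, 19.4 and 21.4 CPM and basal HB 23.6 and 24.3, while ORS had 10.8 and 8.73 and suprabasal HB 11.4 and 8.75. No library of the first pair overlaps one of the second. Basal HB was 2.45-fold above ORS (log2 1.29, SE 0.20, edgeR adjusted p = 0.0014) and suprabasal HB 2.38-fold below basal HB (log2 -1.25, SE 0.20, edgeR adjusted p = 0.0021). Relative to HFSC, ORS was 2.31-fold lower (edgeR adjusted p = 0.00107) and suprabasal HB 2.24-fold lower (edgeR adjusted p = 0.000808). Within the pairs, basal HB against HFSC gave a log2 of 0.09 (95% interval -0.31 to 0.48) and suprabasal HB against ORS 0.04 (-0.40 to 0.49), and neither passed.

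Dsc3, the main desmocollin of basal keratinocytes, was the most abundant member and declined from the stem cells to the bulb. It had 852, 1049 and 879 CPM in HFSC, 624 and 693 in ORS, 372 and 397 for basal HB and, for suprabasal HB, 540.0 and 455. The populations do not overlap and stand in the order HFSC, ORS, suprabasal HB, basal HB. Basal HB was 2.41-fold below HFSC (log2 -1.27, SE 0.14, edgeR adjusted p = 0.000108) and 1.71-fold below ORS (edgeR adjusted p = 0.00366), and suprabasal HB was 1.86-fold below HFSC (edgeR adjusted p = 0.00057). ORS was 1.41-fold below HFSC (log2 -0.49, SE 0.13, edgeR adjusted p = 0.0165), a call lost without HFSC replicate 2 (-0.30, edgeR adjusted p = 0.0798), HFSC replicate 3 (edgeR adjusted p = 0.0531) or ORS replicate 1 (edgeR adjusted p = 0.0977), and on the TPM scale (limma adjusted p = 0.436). Neighbours in the lower part of the order missed the threshold. Suprabasal HB against basal HB gave 0.37 (95% interval 0.05 to 0.70, edgeR adjusted p = 0.0845). Suprabasal HB against ORS gave -0.40 (-0.73 to -0.08, edgeR adjusted p = 0.0636), which passed without HFSC replicate 2 (-0.40, edgeR adjusted p = 0.0413) and with DESeq2 (adjusted p = 0.0129).

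The make-up of the desmosomal cadherin pool can be compared between genes only per length, on the deposited TPM scale (transcript abundance after division by length). Summed over the 8 members, TPM was 426 ± 27.6 (SD, n = 3) in HFSC, 405 ± 19.1 (n = 2) in ORS, 396 ± 26.3 (n = 2) in basal HB and 315 ± 81.3 (n = 2) in suprabasal HB. The libraries of the first 3 populations overlap in this sum, between 377 and 457 TPM, while the split between the genes differed. Desmocollins summed to 264 TPM in HFSC, 238 in ORS, 152 in basal HB and 169 in suprabasal HB, and desmogleins to 161, 167, 244 and 146. The ratio of desmocollin to desmoglein TPM was 1.64 ± 0.063 (SD, n = 3) in HFSC, 1.42 ± 0.083 (n = 2) in ORS, 0.624 ± 0.031 (n = 2) in basal HB and 1.16 ± 0.060 (n = 2) in suprabasal HB. In basal HB alone, in both libraries, desmogleins outweighed desmocollins. No test was run on ratios and shares, since an exact permutation test of 3 against 2 libraries cannot go below p = 0.2, nor one of 2 against 2 below 0.333.

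**Figure D3:**
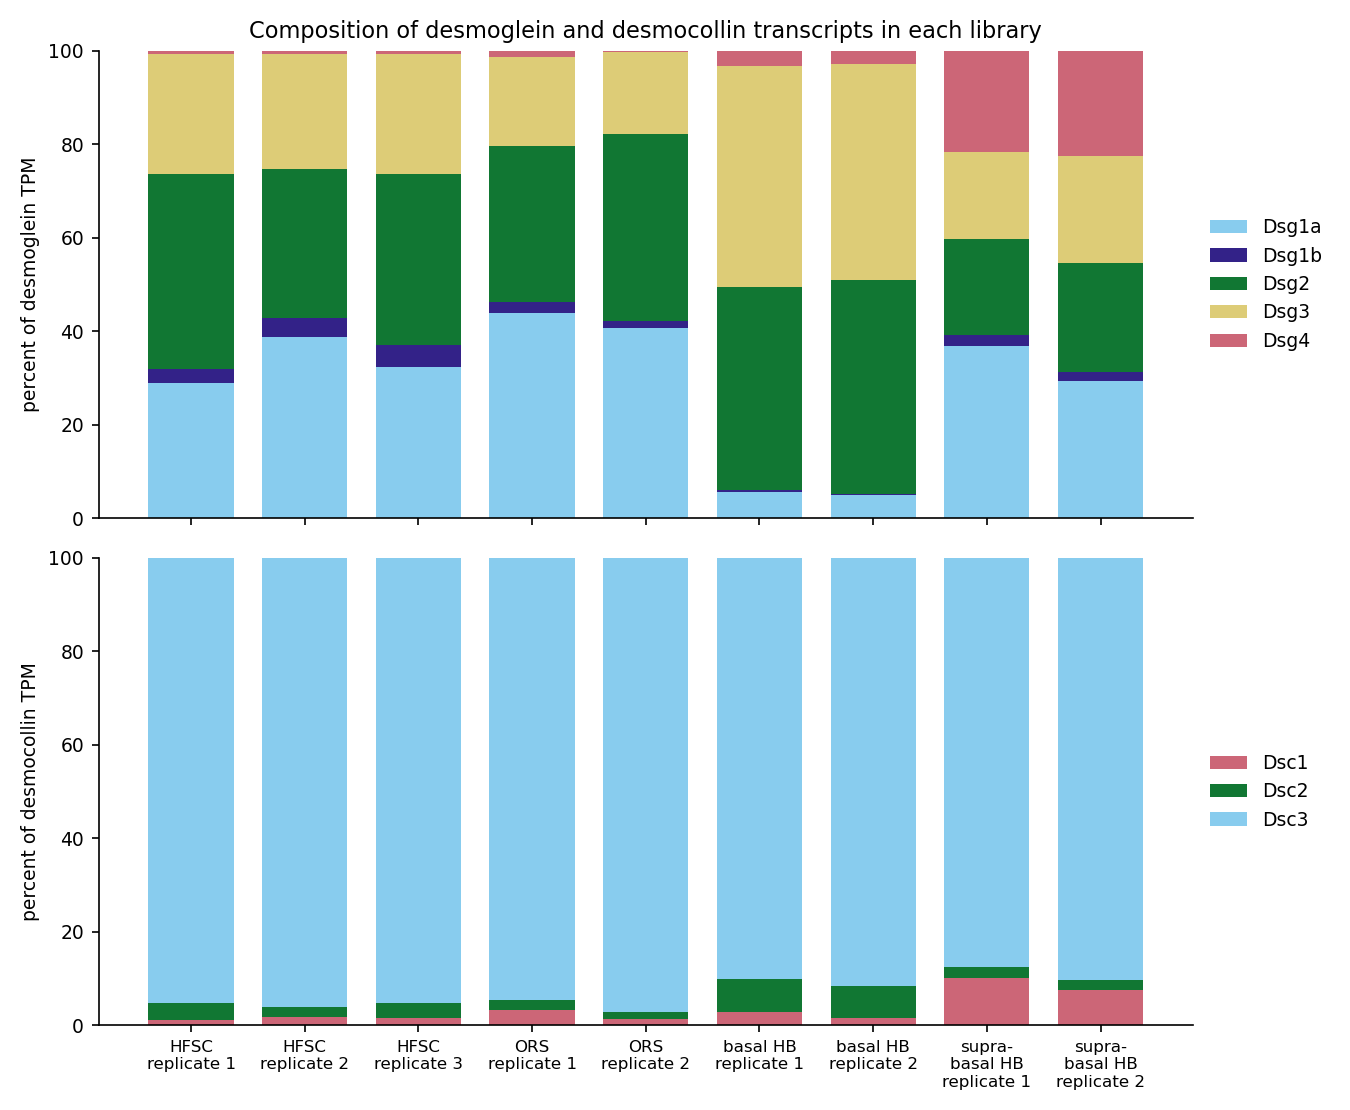
Share of each desmoglein in summed desmoglein TPM (upper panel, percent) and of each desmocollin in summed desmocollin TPM (lower panel, percent), with a stacked bar for each of the 9 libraries. Dsg2 and Dsg3 fill 91.3% of the basal HB bars on average, Dsg4 22.1% of the suprabasal HB bars, and Dsc3 at least 87.5% of every desmocollin bar.

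Among desmogleins, HFSC held 36.7% Dsg2, 33.3% Dsg1a, 25.4% Dsg3, 3.89% Dsg1b and 0.690% Dsg4 (means of 3 libraries). ORS held 42.3% Dsg1a, 36.7% Dsg2 and 18.3% Dsg3. The order of Dsg1a and Dsg2 was not settled in either population, since HFSC replicate 2 had more Dsg1a (38.8%) than Dsg2 (31.7%) and ORS replicate 2 had 40.6% and 40.1%. Basal HB was split almost evenly between Dsg3 (46.8% ± 0.764, SD, n = 2) and Dsg2 (44.5% ± 1.61), and Dsg1a took only 5.28% ± 0.463. Suprabasal HB had 4 desmogleins at similar weight, with Dsg1a at 33.1%, Dsg4 at 22.1% ± 0.518, Dsg2 at 21.9% and Dsg3 at 20.8%. The ratio of Dsg4 to Dsg3 TPM moved from 0.0272 in HFSC, 0.044 in ORS and 0.0656 in basal HB to 1.07 in suprabasal HB.

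Dsc3 made up 95.5% of desmocollin TPM in HFSC, 95.9% in ORS, 90.9% in basal HB and 88.9% in suprabasal HB. What it left was mostly Dsc2 in basal HB (6.91% ± 0.202, SD, n = 2, with Dsc1 at 2.22%) and mostly Dsc1 in suprabasal HB (8.88% ± 1.92, with Dsc2 at 2.22%). In TPM Dsc3 ranked first of the 8 in each population (252, 228, 138 and 150 TPM in HFSC, ORS, basal HB and suprabasal HB). It stood well apart from the next gene in HFSC (Dsg2, 58.8) and ORS (Dsg1a, 70.6), and less so in basal HB, where Dsg3 had 106 and 122.3 TPM and Dsc3 136 and 140.4. The last place went to Dsg4 in HFSC and ORS (1.12 and 1.37 TPM) and to Dsg1b in basal and suprabasal HB (0.850 and 3.27 TPM).

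Similarity of course was measured as the root mean square difference in log2 CPM, each gene centred on its mean over the 9 libraries. The measure is not scaled by range, so a small value can mean that genes moved alike or that both changed little. The range over the libraries was 1.66 for Dsg2 and 6.30 for Dsg4, and genes with a wide range lie far from most others. The values are descriptions over libraries that share populations. Among the 28 pairs of members, Dsg2 and Dsc2 were closest at 0.386, followed by Dsg2 and Dsg3 at 0.413 and Dsg3 and Dsc2 at 0.419, and then by Dsg1a and Dsg1b at 0.575 and Dsg1a and Dsc3 at 0.702. The pair farthest apart was Dsg1b and Dsg4 at 2.71, which are next to each other on the chromosome. Dsg4 was also 2.11 from Dsg3, its neighbour on the other side, so its course was not shared by the genes that flank it.

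**Figure D4:**
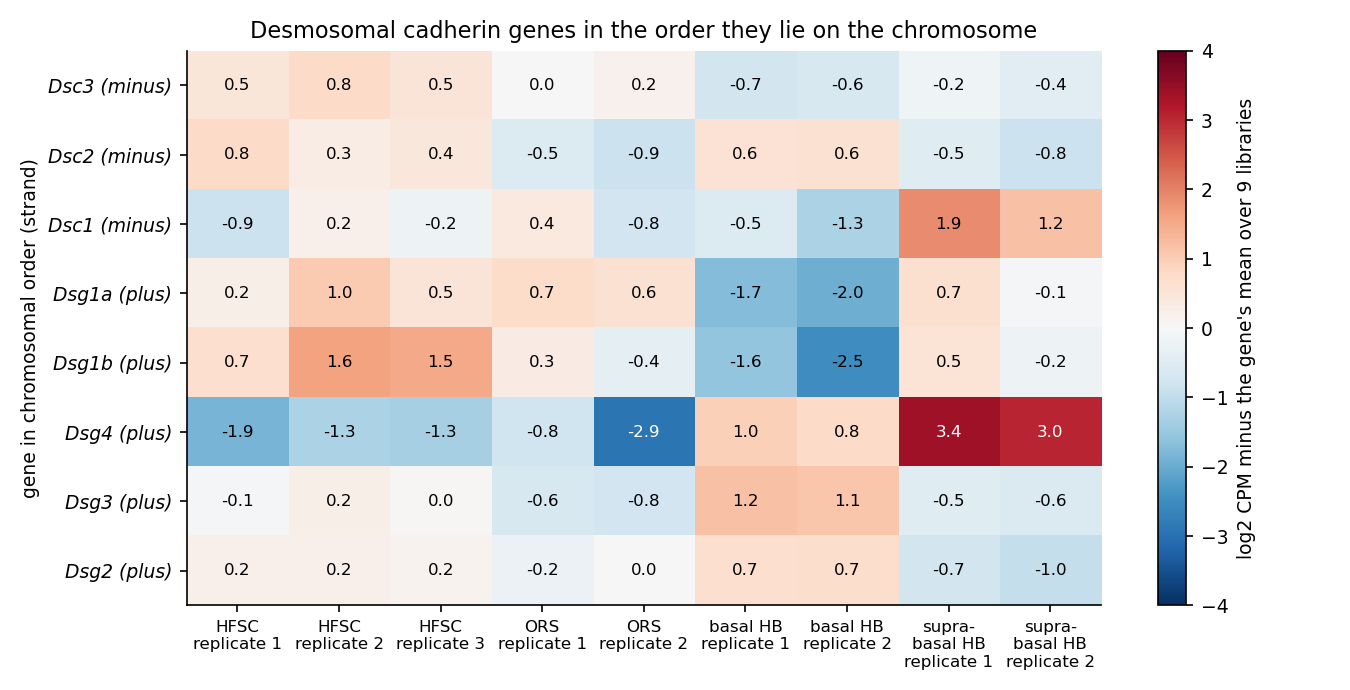
Log2 CPM of each member minus its mean over the 9 libraries (colour and printed value), with genes as rows in the order they lie on the chromosome and libraries as columns. Dsg4, at 3.4 and 3.0 in suprabasal HB, lies between Dsg1b, at -1.6 and -2.5 in basal HB, and Dsg3, at 1.2 and 1.1 in basal HB.

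Outside the family, many genes were closer to a member than other members were. Of 20483 genes, 384 were closer to Dsg2 than Dsc2 was and 563 closer than Dsg3 was, while 38 were closer to Dsg1a than Dsg1b was. For Dsg3 the 3 closest of 20483 were Antxr2 (0.157), Ecm2 (0.170) and Sulf1 (0.181), for Dsg2 RP23-253G12.9 (0.166), Prx (0.172) and Marveld1 (0.176), and for Dsc2 Sema4a (0.163), Catsperg1 (0.179) and Sertad1 (0.181). Dsg4 was closest to Lhfpl2 (0.237), Mgll (0.274) and Optn (0.284), and Dsc1 to Krt25 (0.320), a keratin of the inner root sheath, Crnn (0.333) and Aox4 (0.340). Rabepk (0.102), Lrrc8e (0.107) and Apmap (0.115) were closest to Dsc3, and Tgm5 (0.384), Lpcat2 (0.437) and Ttc22 (0.470) to Dsg1b. For Dsg1a they were Gm26671 (0.164), which had only 4 to 35 counts per library, Sec14l2 (0.380) and Ell3 (0.402).

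The partners of the cadherins inside the cell were mostly lower in ORS than in the stem cells, and 4 of them were higher in basal HB than in ORS. Of 11 plaque and associated genes (Jup, Dsp, Pkp1, Pkp2, Pkp3, Pkp4, Perp, Evpl, Ppl, Cdsn and Dsg1c), all tested, ORS against HFSC had 1 higher and 6 lower, beside 41.9% of all genes in either direction, with a median log2 fold change of -0.52. Plakoglobin (Jup), which binds both cadherin types, had 553, 466 and 491 CPM in HFSC and 259 and 280.3 in ORS, which do not overlap, a fall by 0.90 on the log2 scale (edgeR adjusted p = 0.000294). Plakophilins Pkp1 and Pkp3, which cluster the plaque, fell by 0.95 and 0.96, desmoplakin (Dsp), the link to keratin, fell by 0.66, and periplakin (Ppl) fell by 0.52. Pkp4 alone was higher, by 1.06 (edgeR adjusted p = 0.000119). Cdsn, a glue protein of cornified desmosomes, fell by 3.05 (edgeR adjusted p = 0.0186) from a level of only 0.762 to 1.64 CPM in HFSC.

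**Figure D5:**
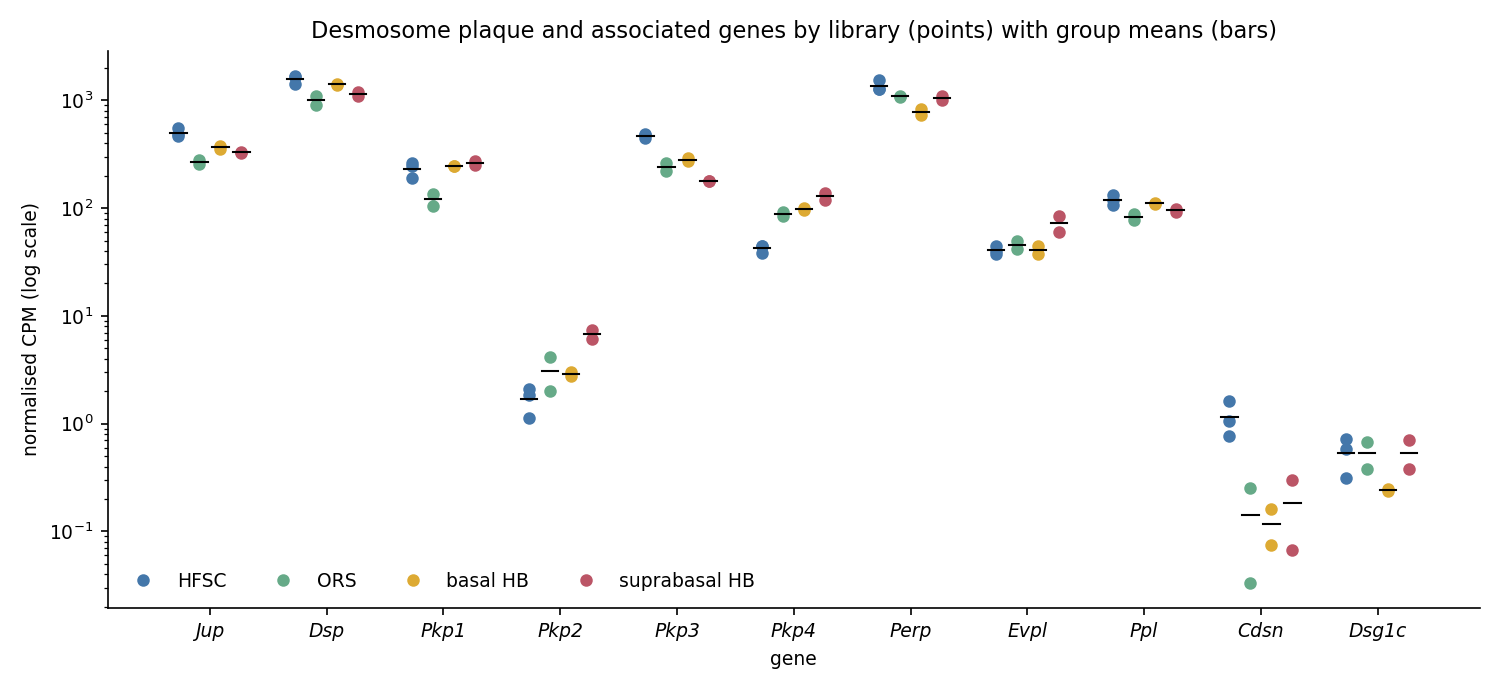
Normalised CPM on a log scale (y axis) of 11 desmosome plaque and associated genes (x axis), with a point for each library coloured by population and a bar for each mean. Jup, Dsp, Pkp1 and Pkp3 lie lower in ORS than in HFSC, and Pkp3 is lowest in suprabasal HB, at 177 and 178 CPM.

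Basal HB against ORS had 4 plaque genes higher and 1 lower, which is 5 of 11 beside 30.5% of all genes. Pkp1 rose by 1.02 on the log2 scale (edgeR adjusted p = 0.00242), from 137 and 104 CPM in ORS to 244 and 247 in basal HB. Dsp (0.49), Jup (0.45) and Ppl (0.41) were higher too, and Perp, a membrane protein that desmosomes need, was lower (-0.49). These calls were fragile, as 1 of the 11 passed without basal HB replicate 1 and 1 without basal HB replicate 2, 2 without ORS replicate 1 and 3 without ORS replicate 2.

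Suprabasal against basal HB had Pkp2 (1.22), Evpl (0.82), Perp (0.45) and Pkp4 (0.38) higher and Pkp3 lower (-0.67, edgeR adjusted p = 0.00278), 5 of 11 beside 27.9% of all genes. Envoplakin (Evpl), a plakin of the cornified envelope, had 44.4 and 37.4 CPM in the basal layer, both below the 84.1 and 60.7 of the suprabasal one (edgeR adjusted p = 0.00739). The count of 5 was 3 without HFSC replicate 2, 2 without HFSC replicate 3, 2 without basal HB replicate 1, 1 without basal HB replicate 2, 3 without suprabasal HB replicate 1 and 2 without suprabasal HB replicate 2. Jup (-0.15), Dsp (-0.29), Pkp1 (0.10) and Ppl (-0.21) did not pass between the 2 layers.

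The remaining comparisons of plaque genes gave 1 higher and 4 lower in basal HB against HFSC (3 passed without basal HB replicate 1), 3 higher and 6 lower in suprabasal HB against HFSC, and 3 higher and 1 lower in suprabasal HB against ORS. Among all genes 48.9%, 51.5% and 29.4% passed in these comparisons, so the counts of 5 and 4 of 11 in the first and last are near the background. In suprabasal HB against HFSC, 5 of the 9 calls were made without HFSC replicate 2, without HFSC replicate 3 or without suprabasal HB replicate 2, and in suprabasal HB against ORS 2 of the 4 without ORS replicate 2 or without suprabasal HB replicate 1. Pkp4 was higher than in HFSC in both bulb layers (1.22 and 1.60), and Jup (-0.46 and -0.61), Pkp3 (-0.73 and -1.40), Perp (-0.82 and -0.37) and Cdsn (-3.26 and -2.58) were lower in both. Dsg1c, the third Dsg1 gene, was near the limit of detection at 0.238 to 0.725 CPM and did not pass with edgeR in any of the 6 comparisons, its smallest unadjusted p being 0.0462 for basal HB against HFSC. Of its 50-base words, 29.64% occur in transcripts of other genes, 26.22% in Dsg1a. How the counting split reads between Dsg1c and Dsg1a is therefore uncertain as well.

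Of 5 adherens junction genes, which form the neighbouring actin-linked junction, 4 were lower in ORS and 4 in basal HB than in HFSC, namely Cdh1, Cdh3, Ctnna1 and Ctnnd1 in both, beside 41.9% and 48.9% of all genes. In suprabasal HB, Cdh1, Cdh3 and Ctnna1 were lower than in HFSC and Ctnnb1 was higher, beside 51.5% of all genes. Basal HB against ORS had 1 lower, Cdh3, beside 30.5% of all genes. Suprabasal HB against ORS had 2 higher, Ctnnb1 and Ctnnd1, beside 29.4%, and suprabasal against basal HB 2 higher, Cdh1 and Ctnnd1, beside 27.9%. These genes were picked out after their values were seen. P-cadherin, the product of Cdh3, is among the sort markers, so Cdh3 may differ through the gates. Cdh1 (E-cadherin) had 307 to 347 CPM in HFSC, 118 and 107 in ORS, 78.5 and 78.8 for basal HB and, for suprabasal HB, 186 and 113, so it shared its low point with Dsg1a, Dsg1b and Dsc3.

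Genes that act in the cleavage of cadherins include the sheddases Adam10 and Adam17, the convertase Furin, the proteases Klk5, Klk7, Klk14 and St14, and Spink5, an inhibitor of kallikreins. Klk14 did not pass the filter on low counts, and of the other 7, 4 were lower in ORS than in HFSC, beside 41.9% of all genes in either direction, led by Spink5 (-2.49) and Klk7 (-2.44). Basal HB and suprabasal HB each had 2 higher and 4 lower than HFSC, beside 48.9% and 51.5% of all genes, with Klk5 at -4.33 and -2.74. In basal HB against ORS, 2 were higher, Spink5 most (3.38, edgeR adjusted p = 0.00014), and Klk5 was lower (-2.96), beside 30.5% of all genes. Suprabasal against basal HB had St14 (1.66) among 2 higher and Spink5 (-2.74) lower, beside 27.9% of all genes. Suprabasal HB against ORS had St14 (1.93) among 2 higher and 1 lower, beside 29.4%. Spink5 reached only 2.50 CPM and Klk5 2.57 CPM in any library.

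Of 7 transcription factors linked to these genes, Grhl1, Trp63, Hoxc13, Foxn1, Lef1, Cebpa and Cebpb, 4 were higher in ORS than in HFSC, and 4 were higher and 2 lower in basal HB than in HFSC, beside 41.9% and 48.9% of all genes. Suprabasal HB had 5 higher and 2 lower than HFSC, beside 51.5% of all genes, led by Lef1 (3.63) and Cebpb (3.05). Basal HB against ORS had 4 higher and 1 lower, beside 30.5% of all genes, with Hoxc13, which regulates hair keratin genes, at 2.21 (edgeR adjusted p = 7.38e-05). Suprabasal HB against ORS had 5 higher and 2 lower, beside 29.4% of all genes, with Lef1 (2.07) and Hoxc13 (1.48) among the higher. Between the bulb layers 1 was higher, Foxn1 (1.87, edgeR adjusted p = 0.000445), the gene mutated in nude mice. In suprabasal HB 4 were lower, among them Grhl1 (-0.83, edgeR adjusted p = 0.00483) and Hoxc13 (-0.72, edgeR adjusted p = 0.00603), the reverse of Dsg4 and Dsc1. Among all genes 27.9% passed there. Foxn1 had 7.68 and 6.26 CPM in the basal layer, 27.4 and 23.5 in the suprabasal one, and 7.91 to 11.6 in HFSC and ORS. Like Dsg4 and Dsc1 it was highest in the suprabasal libraries. Lef1 was highest there too, at 311 to 329 CPM against 240 to 268 in basal HB, though this difference did not pass (edgeR adjusted p = 0.353).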

How the data were processed

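Each library's table holds expected counts, the authors' RSEM estimates of reads per gene, not scaled for depth. It also holds TPM, scaled by the authors after division by effective length, and the deposited effective length itself, in bases, used to recompute shares. Per the submitters' processing notes, the tools were RSEM 1.2.30 and Bowtie2 2.2.9 and the build mm10, and settings, annotation and counting strand are not given in the sources used here. The 92 rows that are no gene were at 0 in all libraries. A series-wide TPM table was not used. Krt85 was not analysed here.

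After rounding of expected counts to whole numbers, edgeR 4.0.16 (R 4.3.3) was used, all 9 libraries in 1 quasi-likelihood fit of 4 population means (filterByExpr, 20491 genes; TMM; 5 residual degrees of freedom). F-tests were 2-sided, their Benjamini-Hochberg adjustment ran over all genes tested, the threshold was 0.05, and intervals are at 95%. Standard errors are the log2 fold change over the square root of F. The fit was tested on simulated data. Normalised CPM uses TMM, and log2 CPM a prior count of 2. A floor of 3 counts is worth 0.0339 to 0.120 CPM per library, and covers counting error only. Alternatives were DESeq2 1.42.0, other scalings and filters, limma 3.58.1 on log2(TPM + 1) and log2(TPM + 0.1), a replicate block, summed Dsg1 counts, and leaving out each library. Replicate numbers were not taken as pairs.

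All 8 members are named in every comparison. Plaque genes are named freely, and other listed genes where they had 1 of the 3 largest changes that passed in a comparison. The 3 genes most like each member are named, and markers are given as list sums, with single markers picked out after their values were seen. Members and lists were chosen with earlier results of these data known, so no list count is independent support.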

Additional observations from a re-analysis of the deposited data

How the results depend on the processing

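Of 48 member fold changes, 34 passed the test, 26 of these kept direction and call in every alternative, and none of the 34 changed sign. The 8 that lost the call at least once were Dsg1b in ORS and suprabasal HB against HFSC, in suprabasal against basal HB and in basal HB against ORS, Dsc1 in suprabasal HB against ORS and basal HB, Dsg4 in suprabasal against basal HB, and Dsc3 in ORS against HFSC. Shares and ratios of TPM moved by less than the SD in all 141 recomputed values. Leaving out 1 library of 2 or 3 always moves a mean by less than the SD, so those values had to stay within it. The count of 141 is therefore no measure of stability. Of the counts of calls, 192 of 222 stayed within 1.5 times. The cause of the changes below was not tested, other than that leaving out a library leaves fewer samples.

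Leaving out a library gave 2 to 5 members called in ORS against HFSC, 6 to 6 in basal HB and 6 to 7 in suprabasal HB against HFSC, 6 to 7 in basal HB and 2 to 4 in suprabasal HB against ORS, and 4 to 7 in suprabasal against basal HB. For plaque genes these ranges were 6 to 7, 3 to 6, 5 to 9, 1 to 5, 2 to 5 and 1 to 4. With limma on log2(TPM + 1) or log2(TPM + 0.1), 2 members were called in ORS against HFSC, and 5 plaque genes in suprabasal HB against HFSC. The plaque counts with pseudocounts of 1 and 0.1 were 3 and 1 in basal HB against ORS, and 2 and 1 in suprabasal against basal HB. Plaque genes called were 2 in suprabasal HB against ORS with only the 2 populations in the fit, and 3 in suprabasal against basal HB with upper-quartile scaling.

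Reversals concerned only differences that had not passed. Dsg4 in ORS against HFSC turned to 0.0219 with upper-quartile scaling, 0.0315 without a low-count filter, 0.0211 with only the 2 populations and 0.0656 with limma on log2(TPM + 1). Dsg1a there turned to -0.0406 with Dsg1 counts summed. With limma at pseudocounts of 1 and 0.1, Dsg2 in ORS against HFSC turned to 0.0553 and 0.056. In suprabasal HB against ORS, Dsg1b turned to -0.0079 and -0.018, Dsg3 to -0.039 and -0.0403, and Dsc2 to -0.113 and -0.143. Leaving out a library gave -0.056 to 0.37 for Dsg1a in ORS against HFSC, -0.70 to 0.12 in suprabasal HB against HFSC and -0.73 to 0.0059 in suprabasal HB against ORS. It gave -0.22 to 0.59 for Dsg1b and -0.16 to 0.24 for Dsc2 in suprabasal HB against ORS, and -1.49 to 0.67 for Dsg4 and -0.52 to 0.62 for Dsc1 in ORS against HFSC.

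The TPM scale moved the median of all genes by 0.175 to 0.272 in ORS and 0.218 to 0.342 in basal HB against HFSC, and by -0.115 to -0.198 and -0.158 to -0.247 in suprabasal HB against ORS and basal HB. The share of higher among called genes went there from 43.2% to 68.8% and 69.4%, from 46.7% to 72.4% and 72.9%, from 48.6% to 30.8% and 30.7%, and from 46.8% to 19.5% and 17.4%. In basal HB against ORS it went from 51.9% to 63.1% with a pseudocount of 0.1. In basal HB against HFSC, upper-quartile scaling moved the median by 0.135 and the share to 57.2%, and leaving out the filter moved the median by 0.126.

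Whether the replicate numbers pair the samples was not settled. Correlations of same-numbered libraries' deviations were -0.105 to 0.121 over 12 pairs, 2 of them over 0.1. With 2 libraries in a population the deviations mirror each other, so pairs between such populations repeat the same value. Both pairs over 0.1 are of basal with suprabasal HB, at 0.121. In 19 of 24 cases a library correlated best with its own number, and these cases repeat in the same way. With a replicate block, 2 plaque genes were called in suprabasal against basal HB, Dsg1a in ORS against HFSC turned to -0.0358, and Dsg1b missed the threshold in ORS (edgeR adjusted p = 0.0648) and suprabasal HB (edgeR adjusted p = 0.0882) against HFSC.

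The lowest count of any member was 56, for Dsg4 in HFSC replicate 1, well above a floor of 3 counts, whereas Cdsn among the partner genes came down to that floor in ORS replicate 2 and suprabasal HB replicate 2.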
